A study of Mus musculus with 7 samples.

Results

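The hepatic stellate cell and extracellular matrix genes described here are 44 symbols listed by function: quiescence and identity, activation and contraction, collagens, matrix glycoproteins, remodelling enzymes and TGF-beta signals. Each was looked up by its Ensembl identifier in the deposited table of 14851 genes, and 44 of 44 were present. The livers came from 4 animals with floxed *p53* (*Albumin-Cre; p53* FL/FL, called FL) and 3 with intact *p53* (*Albumin-Cre; p53* WT/WT, called WT). All were C57BL/6J males of about 70 days, and all were given 1 intraperitoneal dose of CCl4 (1 mL/kg, 20% by volume, with corn oil as carrier), a solvent that hepatocytes convert to toxic radicals, and sampled after 8 h. Both groups carried Cre. The *Albumin* promoter drives Cre in hepatocytes, so that stellate cells, endothelial cells and macrophages are expected to keep *Trp53* in either genotype, and no untreated liver was analysed here. The question was therefore whether loss of p53 from hepatocytes altered the matrix-producing programme of the liver early after injury.

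Stellate cells lie in the space between hepatocytes and sinusoidal endothelium, where in a healthy liver they store vitamin A as retinyl esters. After injury they can lose these stores and become contractile, collagen-secreting myofibroblast-like cells, a switch driven by TGF-beta and platelet-derived growth factor (PDGF), and repeated CCl4 is a classical way to produce such fibrosis. Matrix genes are not confined to these cells, since hepatocytes secrete fibronectin, and endothelial cells, portal fibroblasts and vascular smooth muscle contribute collagens and actin.

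The values were normalised counts, that is, reads per gene divided by a factor for each library and rounded by the authors, and they were compared between FL and WT with limma on log2(normalised count + 1), so that a positive log2 fold change means a higher level in FL. Estimated depths were 11.9 to 19.5 M reads. *Trp53* itself was 131, 130, 217 and 110 in FL and 876, 688 and 831 in WT, as the labels state. On the first principal component, which held 66.7% of the variance, WT replicate 2 (WT2) scored 82.0 and FL replicate 3 (FL3) 29.2, against -25.6 to -19.1 for the other 5 livers. Since these 2 livers lay on opposite sides of the comparison, fold changes are given over all 7 livers and, for the genes whose value moved, also over the 5 without them.

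No gene of the 43 with a mean of at least 10, the minimum for testing, passed an adjusted p of 0.05 (limma, Benjamini-Hochberg over 12545 genes, smallest adjusted p 0.999), where 2 genes or 0.0159% of all tested did. *Lox* was below the minimum. At an unadjusted p under 0.05, 1 member was lower in FL and 0 were higher, against 1.6% and 1.59% of all tested genes. The log2 fold change was below 0 for 34 of 43, with a median of -0.32, against 48.4% and a median of 0.01 for all genes. Without WT2 and FL3 the median of the 43 was 0.06 and 17 were below 0, against 53.2% and -0.01. Leaving out WT2 alone gave a median of 0.20, with 10 of 43 below 0.

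**Figure D1:**
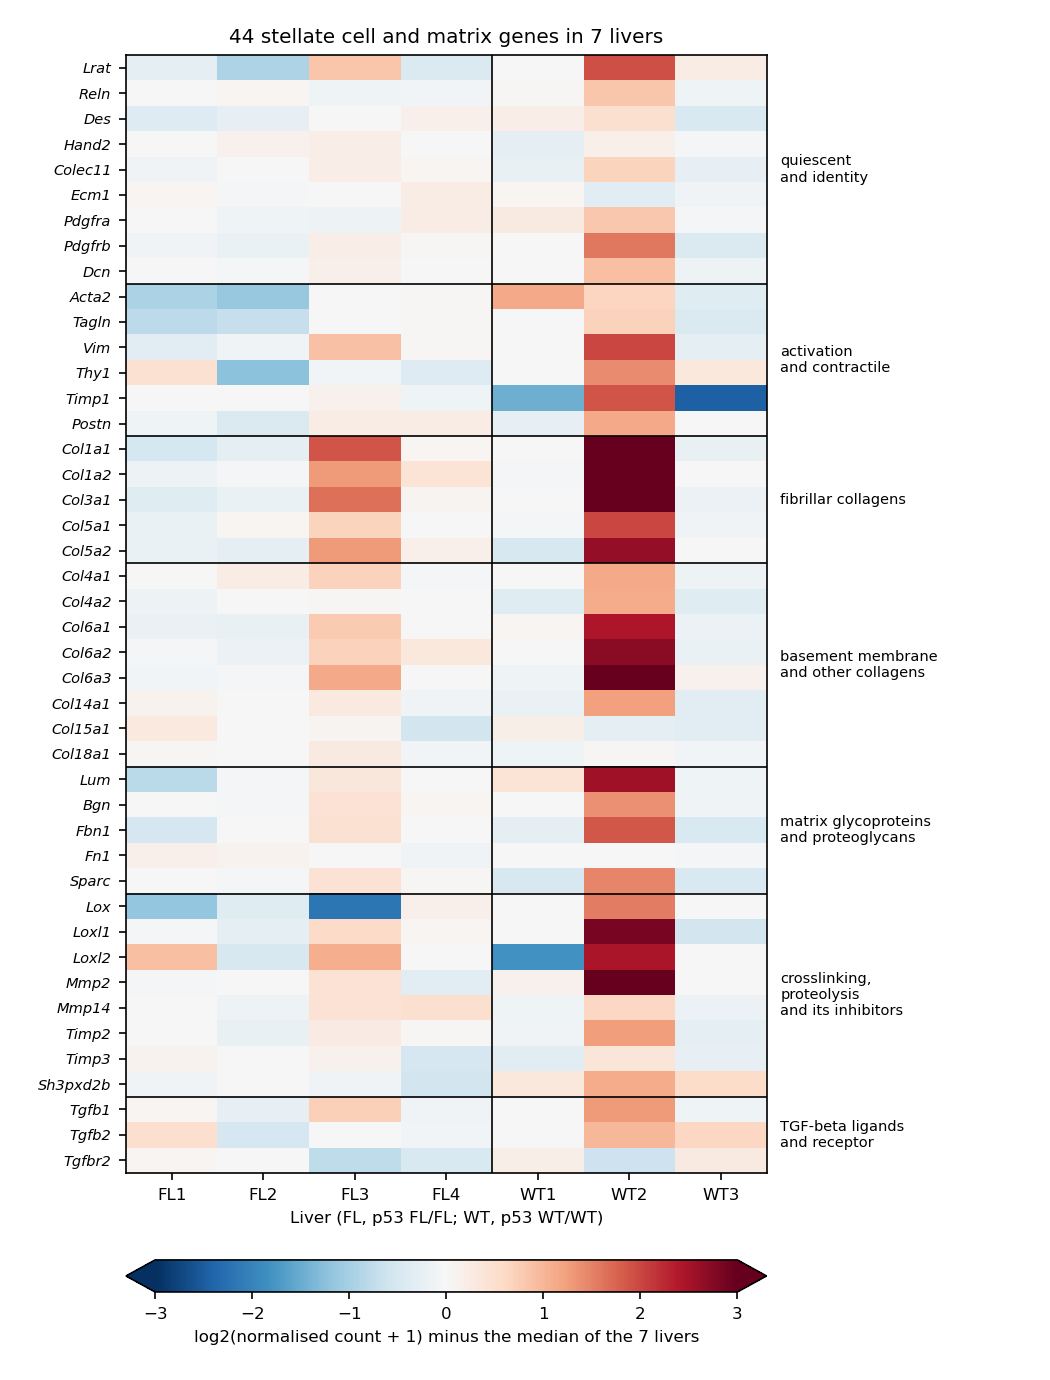
Level of each of the 44 genes (rows, by function) in the 7 livers (columns), as log2(normalised count + 1) minus the median over the livers, with colours limited to 3 either way. Red fills the WT2 column, where 37 of 44 genes had their highest value, and is paler in FL3, while rows such as *Fn1*, *Ecm1* and *Col18a1* are nearly flat.

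The variation that the genes shared lay between livers rather than between genotypes. Of the 43 tested, 36 were highest of all 7 livers in WT2, against 31.6% of all tested genes, and 26 were highest in WT2 and second in FL3, against 19.3%. In 26 of 43 the WT2 value was over 2-fold above both other WT livers, against 9.5%, and in 5 of 43 the FL3 value was over 2-fold above the other 3 FL livers, against 2.11%. These 5 were *Lrat*, *Col1a1*, *Col3a1*, *Col5a2* and *Col6a3*. In whole-liver RNA, more cells of a type and more RNA per cell cannot be told apart.

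The promoters of *Col3a1*, *Timp1* and *Col6a3* are shown because these 3 had the largest WT2 fold over the other WT livers among the 11 members whose RefSeq start site is also the annotated 5′ end of the gene. Sequences are from RefSeq on GRCm38.p6, and 31 of 44 members had an entry. Each run is the 150 bases before the start site, 5′ to 3′ on the strand of the gene, with TATAAA or CCAAT on either strand in capitals. *Col3a1* is at chr1:45311388-45311537 (plus strand), *Timp1* at chrX:20870016-20870165 (plus strand) and *Col6a3* at chr1:90843972-90844121 (minus strand).
Col3a1: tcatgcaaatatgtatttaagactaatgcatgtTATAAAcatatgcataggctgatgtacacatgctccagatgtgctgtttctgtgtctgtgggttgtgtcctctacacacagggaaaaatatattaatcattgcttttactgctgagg
Timp1: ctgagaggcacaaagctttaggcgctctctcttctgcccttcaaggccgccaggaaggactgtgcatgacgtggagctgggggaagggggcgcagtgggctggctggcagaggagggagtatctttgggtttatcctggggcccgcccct
Col6a3: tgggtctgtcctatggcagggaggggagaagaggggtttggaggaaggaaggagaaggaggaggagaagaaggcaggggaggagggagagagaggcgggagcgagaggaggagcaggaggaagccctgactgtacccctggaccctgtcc
The *Col3a1* window is rich in A and T and held 1 TATAAA, beginning 117 bases before the start site. The other 2 windows held neither motif, and the middle of the *Col6a3* window is rich in purines. TATAAA occurred in 5 of the 31 members and in 7.57% of 32851 promoters, and CCAAT in 9 of 31 and in 24.5%. Neither motif was shared by the 3 windows shown.

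Among the quiescence genes, *Lrat* varied most. It encodes lecithin retinol acyltransferase, which makes the retinyl esters that stellate cells store, and lies at chr3:82892579-82903973 on GRCm38 (minus strand). Its normalised counts were 94, 60, 206 and 85 in FL and 115, 444 and 134 in WT. The highest value was in WT2 and the next in FL3, and without these livers every FL value was below both WT values. Over all livers its log2 fold change was -0.92 ± 0.55 (SE, exact permutation p = 0.26), and -0.31 without WT2 alone. Over the remaining 5 it was -0.66 ± 0.21 (limma, adjusted p = 0.36), where 3 livers against 2 cannot give an exact permutation p below 0.1.

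The other identity genes varied less. *Reln*, the secreted glycoprotein reelin and a marker of quiescent stellate cells, was 546, 572, 500 and 519 in FL and 555, 970 and 500 in WT. *Des*, the intermediate filament desmin, was 74, 82, 97 and 108 in FL and 111, 136 and 70 in WT. *Pdgfra*, a PDGF receptor, was 142, 130, 128 and 166 in FL and 171, 249 and 139 in WT. WT2 was highest for each of these 3, and WT1 and WT3 lay within or close to the FL range. Log2 fold changes were -0.27 ± 0.22 for *Reln*, -0.19 ± 0.25 for *Des* and -0.36 ± 0.21 for *Pdgfra* (SE), none past the threshold. Without WT2 and FL3 they were 0.05 ± 0.10, -0.02 ± 0.24 and -0.09 ± 0.16. *Pdgfrb*, the receptor through which PDGF-BB drives stellate cell growth, reached 463 in WT2 against 114 to 179 in the other 6 livers. *Dcn*, the small proteoglycan decorin, reached 3221 against 1531 to 1903. *Hand2*, a transcription factor of stellate cells, spanned only 103 to 144.

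*Ecm1*, extracellular matrix protein 1, which keeps latent TGF-beta inactive and is also made by hepatocytes, ran the other way. It was 3017, 2831, 2879 and 3336 in FL and 2975, 2268 and 2670 in WT. Its lowest value was in WT2, and the groups overlapped. The FL mean exceeded the WT mean by 0.20 ± 0.12 on the log2 scale (SE, exact permutation p = 0.14), and by 0.12 ± 0.10 without WT2 and FL3. All 10 markers taken to define stellate cells (*Lrat*, *Reln*, *Des*, *Hand2*, *Colec11*, *Ecm1*, *Pdgfrb*, *Dcn*, *Col1a1* and *Col3a1*) were above the level of 3 reads in every liver, so RNA of these genes was present in all 7 samples.

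**Figure D2:**
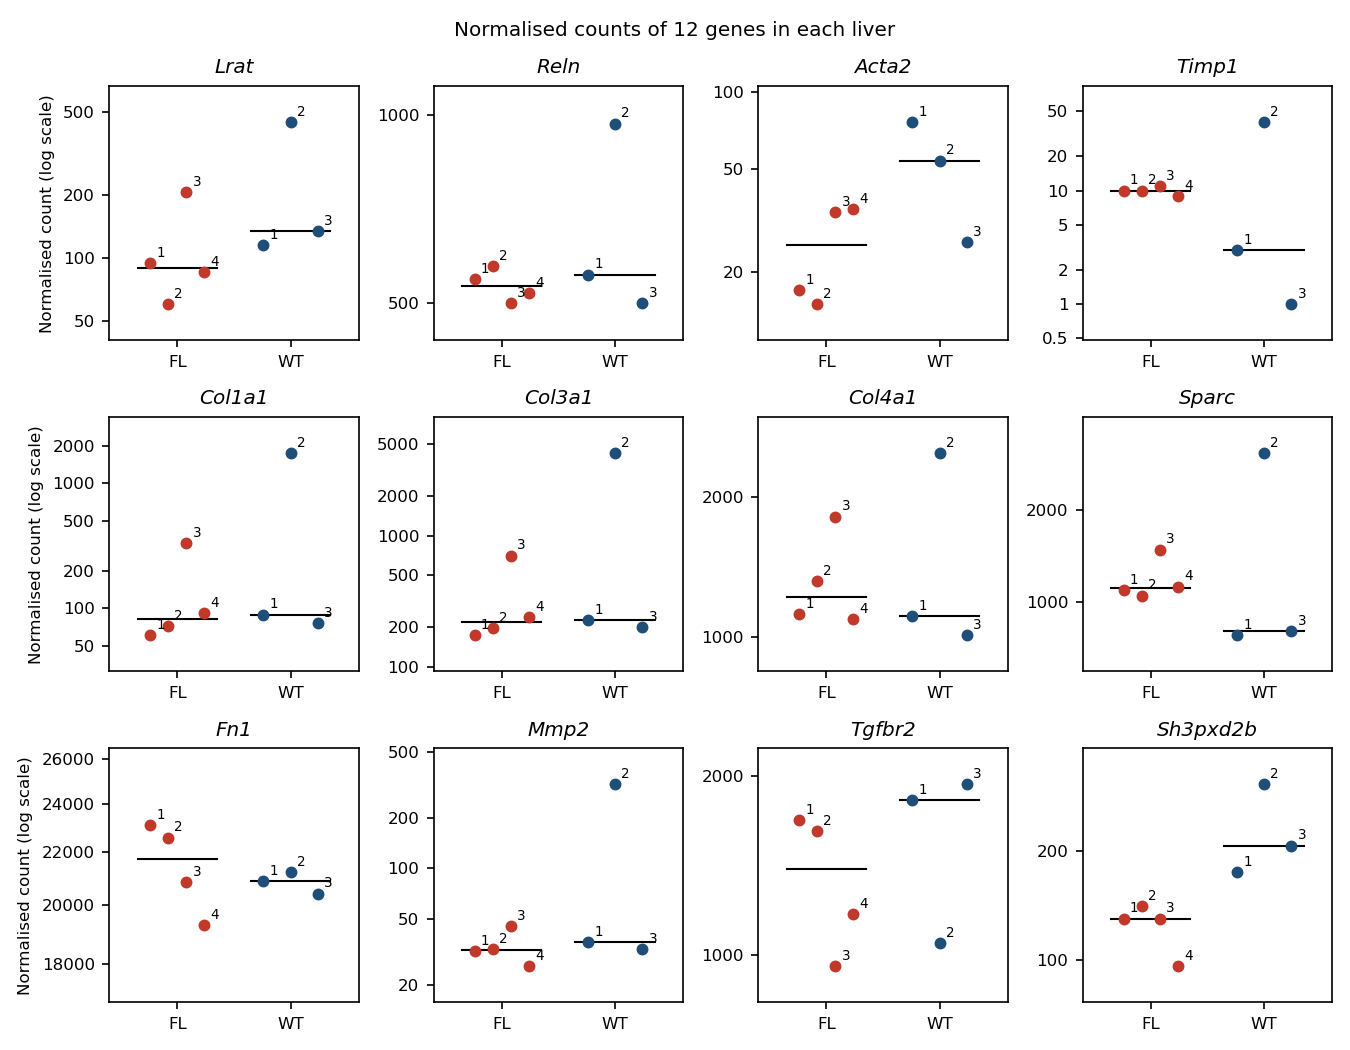
Normalised counts (log scale) of 12 genes in each liver, FL in red and WT in blue, with the replicate number beside each point and a line at the median of the group. WT2 is the highest point for *Col1a1* (1744) and *Col3a1* (4265), *Acta2* is highest in WT1 (76), *Tgfbr2* is lowest in FL3 (958) and WT2 (1047), and of the 12 only *Sh3pxd2b* separates the groups.

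Activation genes did not follow a single pattern. *Acta2*, alpha smooth muscle actin, the usual mark of the activated stellate cell (chr19:34241090-34255590, minus strand), was 17, 15, 34 and 35 in FL and 76, 54 and 26 in WT. Here the highest liver was WT1 rather than WT2, the lowest were FL1 and FL2, and WT3 lay among the FL livers. On the log2 scale the fold change was -0.98 ± 0.46 (SE, exact permutation p = 0.17), and -1.06 ± 0.48 without WT2 and FL3.

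Smooth muscle markers were also high in WT1 and WT2 as a sum, though not gene by gene. Of 6 listed, 5 were in the table, of which 2 were tested. The summed level of the 5 was 150 to 185 in FL and 339, 397 and 168 in WT1, WT2 and WT3. WT2 was the highest of the WT livers for 2 of the 5. The median fold of the 5 in WT2 over the other WT livers was 0.769. The sum was highest in WT2, where *Acta2* was second, and FL3 and FL4, in which *Acta2* was 34 and 35 against 17 and 15 in FL1 and FL2, had sums of 185 and 157 against 170 and 150. *Myh11*, smooth muscle myosin, was 84 in WT1 and 94 in WT2 against 26 to 37 in the other 5 livers, and *Actg2*, an enteric and vascular smooth muscle actin, was 37 in WT1 and 0 in FL4. Their part in the *Acta2* difference was not tested. *Tagln*, transgelin, an actin-binding protein of contractile cells, was 78, 84, 136 and 139 in FL and 136, 220 and 101 in WT, with FL1 and FL2 again lowest and a log2 fold change of -0.45 ± 0.32 (SE), or -0.27 ± 0.25 without WT2 and FL3.

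*Thy1*, a surface protein of portal fibroblasts and activated myofibroblasts, was 28, 8, 19 and 15 in FL and 20, 55 and 25 in WT, with overlapping groups and a log2 fold change of -0.88 ± 0.49 (SE), or -0.54 ± 0.46 without WT2 and FL3. *Vim*, the intermediate filament vimentin, reached 1111 in WT2 and 511 in FL3 against 219 to 281 elsewhere. *Postn*, the matricellular protein periostin, reached 305 in WT2 against 102 to 162.

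*Timp1*, a metalloproteinase inhibitor induced in liver injury, was low throughout. Its counts were 10, 10, 11 and 9 in FL and 3, 40 and 1 in WT, where WT3 was under the level of 3 reads (2.79). The FL livers were nearly equal, whereas WT held both the highest and the 2 lowest values. Its log2 fold change was 0.67 ± 0.94 (SE) over all livers and 1.91 ± 0.52 without WT2 and FL3 (adjusted p = 0.29, limma). At values this low the fitted size depends on the pseudocount. The gene (chrX:20870166-20874735, plus strand) lies within *Syn1* on the opposite strand, and whether the counting used strand is not given in the sources used here.

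The 5 fibrillar collagens held the widest range. *Col1a1*, the alpha1 chain of type I collagen (chr11:94936224-94953042, plus strand), was 61, 72, 334 and 92 in FL and 89, 1744 and 76 in WT. WT2 was 21.1 times the mean of the other WT livers and FL3 4.45 times the mean of the other FL livers. *Col3a1*, type III collagen (chr1:45311538-45349706, plus strand), was 174, 197, 704 and 240 in FL and 225, 4265 and 200 in WT, or 20.1 times and 3.46 times. Outside these 2 livers, FL and WT values of both genes lay within a narrow common range.

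Over all livers the log2 fold change was -1.07 ± 1.11 for *Col1a1* (SE, 95% interval -3.64 to 1.49) and -1.06 ± 1.06 for *Col3a1* (-3.50 to 1.38), limma. Without WT2 and FL3 it was -0.15 ± 0.21 and -0.07 ± 0.16. *Col1a2*, the second chain of type I collagen, was 9.01 times higher in WT2 and 2.25 times in FL3, *Col5a2* 7.46 and 2.62 times, and *Col5a1* 4.20 and 1.65 times, the last pair being chains of type V collagen. All 5 had their highest value in WT2 and the next in FL3. Their summed level was 551 to 757 in FL1, FL2 and FL4, 649 and 623 in WT1 and WT3, 1801 in FL3 and 8480 in WT2.

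The chains of type I collagen did not keep a fixed ratio. Type I collagen joins 1 *Col1a2* product to a pair of *Col1a1* products. Per length of exon, the level of *Col1a1* was 0.664, 0.729, 1.36 and 0.678 of that of *Col1a2* in FL and 0.896, 1.93 and 0.749 in WT. Exon length is the union of all annotated exons, 6563 bases for *Col1a1* and 12426 for *Col1a2*. The size of the ratio depends on these lengths, so only its differences between livers are read here. The ratio was highest in WT2 and FL3, the livers with the most collagen RNA, and 0.664 to 0.896 in the other 5. By contrast, *Col3a1* per length stayed between 1.41 and 1.91 times *Col1a1* in every liver.

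**Figure D3:**
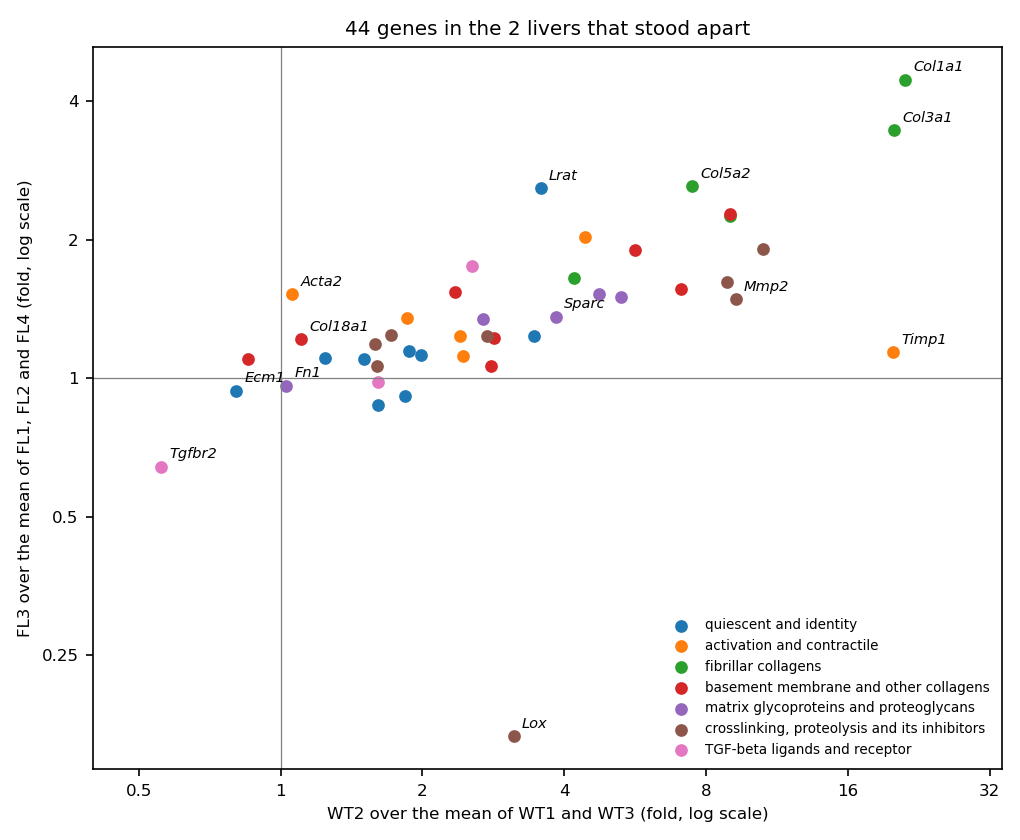
Each of the 44 genes by its fold in WT2 over the mean of WT1 and WT3 (horizontal, log scale) and its fold in FL3 over the mean of the other 3 FL livers (vertical, log scale), coloured by function. *Col1a1* (21.1 and 4.45) and *Col3a1* (20.1 and 3.46) lie at the upper right, *Timp1* was high in WT2 alone (20.0 and 1.14), and *Tgfbr2* (0.557 and 0.642) was below 1 in both.

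Cell markers differed in the same 2 livers. Of 6 macrophage markers, 6 were highest in WT2, and their summed level was 4412 to 5591 in the other 3 FL livers, 7227 in FL3, 5015 and 4426 in WT1 and WT3, and 11743 in WT2. Proliferation markers, 6 of 6 highest in WT2, summed to 929 in WT2 and 231 in FL3 against 68 to 106 in the other 5, with *Mki67* at 380 and 75 and *Bub1* at 0 in FL4. Mesothelial and portal fibroblast markers summed to 451 in WT2 and 80 to 122 elsewhere, of which *Upk3b* and *Wt1* were listed at 0 in some livers. Endothelial markers summed to 3334 in WT2 and 3035 in FL3, the highest of each group, against 2383 to 2839 in the other 5. Neutrophil and monocyte markers were scarce and also highest there, with sums of 192 in WT2 and 125 in FL3 against 28 to 73. The sum of the 6 hepatocyte markers was highest in FL3 and FL4 of all livers. Among the WT livers it was highest in WT2, at 1492038 against 1214227 in WT1 and 1296875 in WT3. Gene by gene, WT2 was the highest of the WT livers for 4 of the 6 and the lowest for 2. All 5 bile duct markers in the table had their lowest FL value in FL3, with a summed level of 603 there against 1254 to 1482 in the other FL livers. The part of any of these in the collagen values was not tested.

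**Figure D4:**
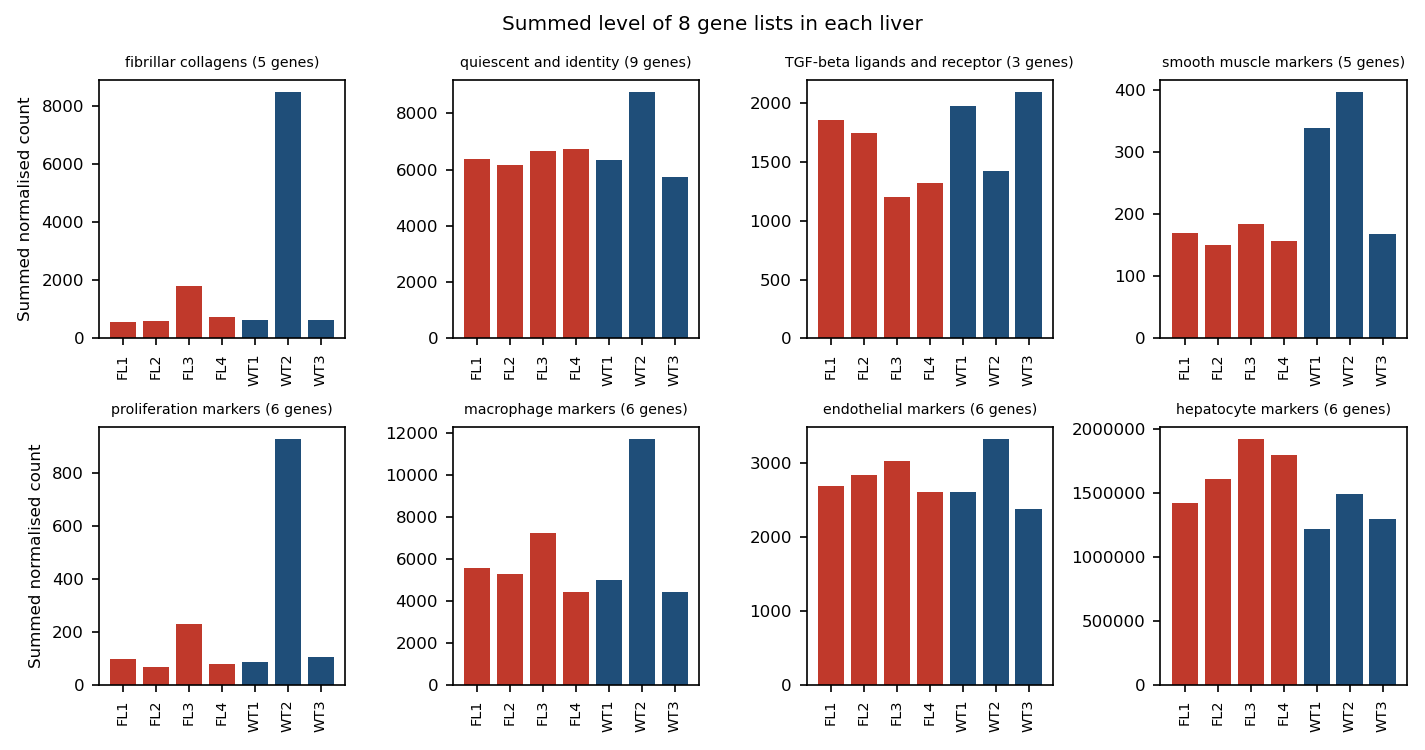
Summed normalised count of 8 gene lists in each liver, FL in red and WT in blue, from 0. The fibrillar collagens (8480 in WT2, 1801 in FL3) and proliferation markers (929 and 231) peak in the same livers, and the smooth muscle markers in WT1 (339) and WT2 (397). The hepatocyte markers are highest in FL3, and WT2 is the highest of the WT livers.

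Basement membrane and other collagens split into those that followed the fibrillar chains and those that did not. *Col6a1* and *Col6a3* encode chains of type VI collagen, a beaded filament around cells. *Col6a1* was 119, 116, 235 and 136 in FL and 141, 739 and 120 in WT, with a log2 fold change of -0.68 ± 0.61 (SE). *Col6a3* was 71, 73, 166 and 75 in FL and 69, 678 and 82 in WT, with -0.80 ± 0.76. For both the order was WT2, then FL3, then the other 5 close together, and without WT2 and FL3 the log2 fold changes were -0.08 ± 0.15 and -0.04 ± 0.17. *Col6a2* followed, at 463 in WT2, as did *Col14a1*, a collagen that binds fibrils, at 1469.

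*Col4a1* and *Col4a2* encode the chains of the type IV collagen of basement membranes and are head-to-head neighbours on chromosome 8, with RefSeq start sites at 11312826 (minus strand) and 11312805 (plus strand), 21 bases apart. *Col4a1* was 1121, 1318, 1816 and 1094 in FL and 1110, 2485 and 1010 in WT, with WT2 and FL3 highest and the others overlapping. Its log2 fold change was -0.10 ± 0.33 (SE), and 0.15 ± 0.10 without WT2 and FL3. *Col4a2* reached 1310 in WT2 but only 623 in FL3, close to the 542 to 612 of the other FL livers. The ratio of *Col4a1* to *Col4a2* per length was 1.61 to 1.91 in FL1, FL2, FL4, WT2 and WT3, 2.11 in WT1 and 2.58 in FL3, so that the pair was not constant although the start sites adjoin.

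*Col18a1*, the source of endostatin, is known to be made by hepatocytes, and it had the highest median level per kilobase of exon of all members, 2373 normalised counts, against 13.6 for *Col1a1*. It spanned 15177 to 20007, highest in FL3, with a log2 fold change of 0.11 ± 0.13 (SE). *Col15a1*, a collagen of vessel walls, spanned 84 to 150 and was not raised in WT2 (101).

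Of the matrix glycoproteins, *Fn1* and *Sparc* differed in behaviour. *Fn1*, fibronectin, made by hepatocytes for plasma as well as by matrix cells (chr1:71585520-71653200, minus strand), was 23102, 22584, 20862 and 19296 in FL and 20878, 21218 and 20429 in WT. The WT livers lay within the FL range, and WT2 was 1.03 times the other WT livers. At a log2 fold change of 0.04 ± 0.12 (SE, 95% interval -0.23 to 0.31), it had the smallest SE of the 43 members tested. It was 0.06 ± 0.11 without WT2 and FL3, and its sign turned to -0.15 after quantile normalisation.

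*Sparc*, osteonectin, a collagen-binding glycoprotein of stellate and endothelial cells (chr11:55394500-55423183, minus strand), was 1098, 1050, 1484 and 1124 in FL and 782, 3051 and 806 in WT. WT2 was the highest and the other WT livers were the lowest of all 7. Over all livers FL and WT differed by -0.08 ± 0.45 (log2, SE). Without WT2 and FL3, FL was higher by 0.46 ± 0.08 on the log2 scale (adjusted p = 0.15, limma), the smallest p of the members in that comparison, and it did not pass the threshold.

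*Lum*, lumican, a proteoglycan that spaces collagen fibrils, was 36, 62, 81 and 64 in FL and 86, 380 and 58 in WT. WT2 stood far above the rest, and FL1 was lowest. Its log2 fold change was -1.07 ± 0.61 (SE, exact permutation p = 0.26), -0.43 ± 0.29 without WT2 and FL3, and -0.27 without WT2 alone. *Bgn*, biglycan, reached 4006 in WT2 against 1430 to 2102, and *Fbn1*, the microfibril protein fibrillin-1, 147 against 28 to 55.

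Remodelling genes held the only member whose groups did not overlap. *Sh3pxd2b* encodes TKS4, a scaffold of podosomes and invadopodia, where cells focus matrix proteolysis, and lies at chr11:32347820-32428173 (plus strand). It was 130, 141, 130 and 96 in FL and 175, 306 and 207 in WT. The highest FL value was under the lowest WT value, as in 1.98% of all tested genes, and for 0 of 43 members was the lowest FL value over the highest WT value, as in 2.77%. The log2 fold change was -0.85 ± 0.22 (SE, unadjusted limma p = 0.0052, adjusted p = 0.999, exact permutation p = 0.029, the smallest that 35 splits allow). It was -0.65 ± 0.18 without WT2 and FL3. The difference was known from earlier results on these same livers when the genes were listed, so the separation is not independent evidence.

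Other cell markers separated the genotypes as well. The bile duct list, with 5 of 6 genes in the table, had *Krt19* and *Krt7* lower in every FL liver than in any WT liver and *Sox9* higher, while its summed level overlapped (603 to 1482 in FL, 879 to 1204 in WT). Of 6 hepatocyte markers, 6 had a positive log2 fold change, and *Apoa1* and *Ttr* lay above WT in every FL liver. Their part in the *Sh3pxd2b* difference was not tested.

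Among the proteases, *Mmp2*, gelatinase A, was 32, 33, 45 and 26 in FL and 36, 319 and 33 in WT. The other 6 livers lay at 26 to 45, and the log2 fold change was -1.10 ± 0.74 (SE) with all livers and -0.19 ± 0.24 without WT2 and FL3. *Mmp14*, the membrane-bound protease that activates pro-MMP2, was 705, 638, 960 and 982 in FL and 646, 1090 and 622 in WT. WT2, FL4 and FL3 were the highest, in that order, and the log2 fold change was 0.09 ± 0.24, or 0.26 ± 0.16 without WT2 and FL3.

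*Lox*, lysyl oxidase, which starts the crosslinking of collagen and elastin, was 3, 6, 1 and 9 in FL and 8, 25 and 8 in WT. FL3 was under the level of 3 reads, FL1 lay at that level after rounding, and no test was made. *Loxl1*, an elastin-directed relative, reached 199 in WT2 against 18 to 41, and *Loxl2* reached 37 against 1 to 14. *Timp2* reached 443 in WT2 against 150 to 219. *Timp3*, an inhibitor bound to matrix, spanned 161 to 296, with a log2 fold change of 0.01 ± 0.23 (SE), or 0.16 ± 0.18 without WT2 and FL3.

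TGF-beta genes did not move together. *Tgfb1*, the main fibrogenic ligand, was 145, 118, 230 and 130 in FL and 139, 337 and 126 in WT, highest in WT2 and next in FL3, with a log2 fold change of -0.26 ± 0.38 (SE), or -0.02 ± 0.15 without WT2 and FL3. *Tgfb2*, a second ligand, was 23, 11, 16 and 15 in FL and 16, 33 and 25 in WT, overlapping at 16 to 23, with -0.56 ± 0.36, or -0.34 ± 0.38 without WT2 and FL3. *Tgfbr2*, the receptor that binds the ligand first (chr9:116084293-116175360, minus strand), was 1686, 1616, 958 and 1172 in FL and 1821, 1047 and 1938 in WT.

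For *Tgfbr2* the order was reversed. FL3 and WT2, the livers highest in *Tgfb1* and the collagens, were the lowest, and FL4 came next. WT2 was 0.557 of the mean of the other WT livers and FL3 0.642 of that of the other FL livers. FL and WT differed by -0.23 ± 0.27 (log2, SE), and by -0.35 ± 0.14 without WT2 and FL3 (adjusted p = 0.48, limma).

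**Figure D5:**
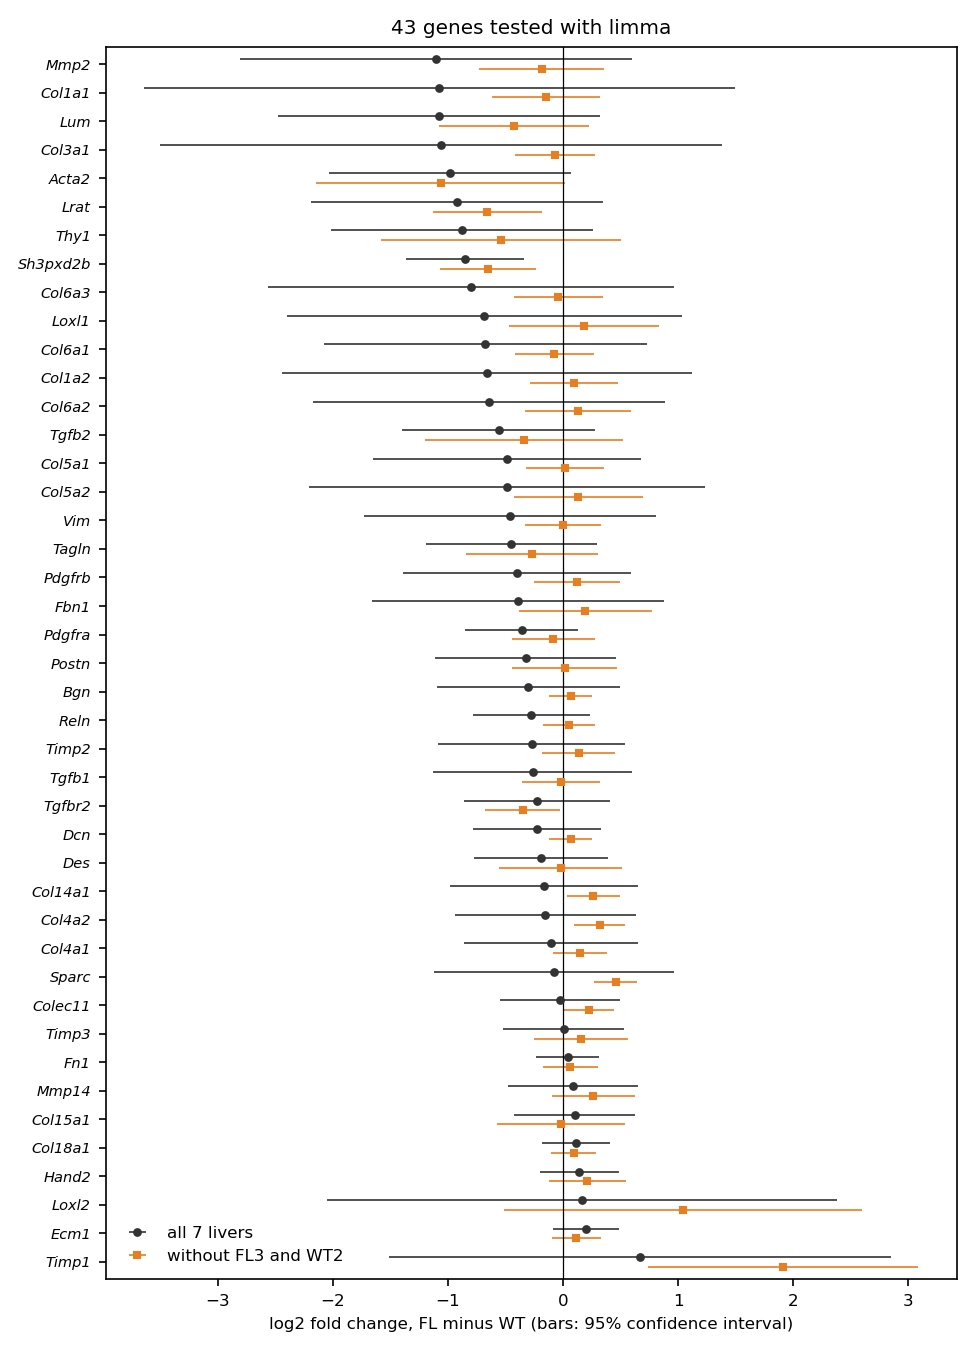
Log2 fold change (FL minus WT) of the 43 genes tested, with 95% confidence intervals, over all 7 livers (black) and without FL3 and WT2 (orange). The interval of *Col1a1*, -3.64 to 1.49 with all livers, narrows without the 2 livers, and *Sparc* (0.46), *Timp1* (1.91), *Lrat* (-0.66) and *Sh3pxd2b* (-0.65) are among the 8 with intervals clear of 0 there.

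In the 5 remaining livers, 8 of 43 members had an unadjusted p under 0.05. Higher in FL were 5 of them, *Sparc*, *Timp1*, *Col4a2*, *Col14a1* and *Colec11*, against 4.49% of all tested genes. Lower in FL were 3, *Sh3pxd2b*, *Lrat* and *Tgfbr2*, against 5.2%. *Col4a2* differed by 0.32 ± 0.10, *Col14a1* by 0.26 ± 0.10 and *Colec11*, a lectin of the complement system made by stellate cells, by 0.22 ± 0.10 (log2, SE). None of the 8 had an adjusted p under 0.05, and 1215 of all tested genes had an unadjusted p under 0.05 in these 5 livers against 401 in all 7. The median SE of the members was 0.36 with all livers and 0.17 without the 2.

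Further genes of the pathway were examined. Of 104 further genes in 7 lists, 102 were in the table and 97 were tested. None passed the adjusted threshold. At an unadjusted p under 0.05 (limma), 2 were lower and 1 was higher in FL, against 1.6% and 1.59% of all tested genes. Their log2 fold change was below 0 for 74, against 48.4%, with a median of -0.17, and -0.02 without WT2 and FL3.

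The lists differed in WT2. It was the highest of the 7 livers for 15 of 19 other stellate cell genes tested, against 31.6% of all tested genes. The same held for 9 of 12 other basement membrane genes and 8 of 8 elastic fibre genes tested. For the other TGF-beta pathway genes WT2 was highest for 6 of 21 tested. Their median fold in WT2 over the other WT livers was 0.754, against 1.007 for all tested genes. Their summed level was 10182 in WT2 and 10670 in FL3 against 11623 to 13706 elsewhere. Collagen synthesis and assembly enzymes, of which 6 of 14 were highest of the 7 livers in WT2, summed to 36475 in WT2 and 36213 in FL3 against 41886 to 44737. Both sums were thus lowest in WT2 and FL3, but most of the enzyme sum was *P4hb*. It was 28864 in FL3 and 29352 in WT2 against 34668 to 37760 elsewhere, so the sum does not describe the list as a whole.

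Among 20 other stellate cell genes (median -0.22), the smallest p were those of *Cygb*, the oxygen-binding globin of stellate cells, and *Nes*, the filament protein nestin. *Cygb* differed by -0.66 ± 0.32 (SE), or -0.36 ± 0.15 without WT2 and FL3, and *Nes* by -0.52 ± 0.26, or -0.38 ± 0.21. Among 22 other TGF-beta pathway genes (median 0.03) they were those of *Ccn2*, connective tissue growth factor, at 0.56 ± 0.27 and *Thbs1*, a latent TGF-beta activator, at -0.65 ± 0.44. Without WT2 and FL3 these were 0.34 ± 0.26 and 0.01 ± 0.29, *Thbs1* being 115 in WT2 and 25 to 59 elsewhere. *Ccn2* was 176, 230, 345 and 377 in FL and 194, 157 and 198 in WT. Its highest values were in FL3 and FL4 and its lowest was in WT2, unlike the collagens.

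Collagen synthesis and assembly enzymes (14 genes, median -0.06) held *Bmp1*, the procollagen C-proteinase, which was 2613, 2689, 2958 and 2691 in FL and 2240, 2182 and 2268 in WT, above WT in every FL liver (0.29 ± 0.09, SE, exact permutation p = 0.029). They also held *Crtap*, a subunit of the prolyl 3-hydroxylase complex, which was below WT in every FL liver (-0.37 ± 0.15, exact permutation p = 0.029). This exact p is the smallest that 35 splits allow, and both genes had an adjusted p of 0.999 (limma). Of the 97 pathway genes tested, 1 lay above WT in every FL liver and 2 below, against 2.77% and 1.98% of all tested genes. *Bmp1* was not raised in WT2.

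The other basement membrane genes (12, median -0.13) were led by *Lama2* (-0.80 ± 0.57) and *Agrn* (-0.14 ± 0.10), a laminin chain and the proteoglycan agrin, which were -0.34 ± 0.35 and -0.07 ± 0.09 without WT2 and FL3. Other proteases and inhibitors (19 tested, median -0.37) were led by *Mmp12*, macrophage elastase, at -1.66 ± 0.74 and *Mmp15*, a membrane-bound protease, at -0.26 ± 0.15, or -0.13 ± 0.11 without WT2 and FL3. *Mmp12* was 151, 58, 119 and 23 in FL and 137, 596 and 139 in WT, highest in WT2 like the macrophage markers, and its log2 fold change was -1.21 ± 0.58 without WT2 and FL3. Elastic fibre genes (8 tested, median -0.41) were led by *Fbln1*, fibulin-1, at -1.33 ± 0.51 (exact permutation p = 0.086) and the microfibril protein *Mfap4* at -1.0 ± 0.57, or -0.51 ± 0.35 without WT2 and FL3. PDGF ligands (4, median -0.19) were led by *Pdgfd* (-0.33 ± 0.35) and *Pdgfc* (-0.18 ± 0.32), which were -0.11 ± 0.36 and 0.25 ± 0.22 without WT2 and FL3.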

How the data were processed

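The deposited table holds 1 file of normalised counts for 7 livers. Per the labels and the methods of the study, the authors aligned paired-end stranded reads with TopHat2 2.0.13 and Bowtie2 2.2.6.0, counted them per gene and divided the counts by DESeq2 size factors. The methods name HTSeq for the counting, and the submitters' processing notes list featureCounts beside it. The deposited values are rounded to whole numbers by the authors and were treated as a score, not as raw counts, so no count model was used. The genome build is named GRCh38.75 in the methods, which is not a mouse build, and symbols, coordinates and exon lengths here are from GENCODE vM21 (GRCm38). The table has 14988 rows for 14851 identifiers, and repeated rows, which were identical, were kept once. The value of 1 read per library, 0.812 to 1.38 normalised counts, was estimated from the spacing of low values. It covers counting error only.

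FL and WT were compared with limma 3.58.1 in R 4.3.3 (lmFit, eBayes with a trend) on log2(value + 1) for the 12545 genes averaging 10 or more, adjusted by Benjamini-Hochberg, and for single members by an exact two-sided permutation test. Tables used Python 3.11.15 and pandas 2.3.3, and figures Matplotlib 3.10.9. The fit was tested on simulated data. Their spread was taken from the livers other than WT2 and FL3, so the test does not cover the spread that those livers add. The members and all lists were chosen with earlier results of these data known. Values in every liver are given for the 12 tested members with the smallest p and for a fixed set of representatives. Of each further pathway list, the 2 genes with the smallest p are named. *Col4a2*, *Col14a1*, *Colec11*, and the genes given by range or by single livers, were named after their values were seen, as were the marker genes. Alternatives were other pseudocounts, filters and scalings, limma variants, a replicate block and leaving out livers. The livers come from different mice, and p-values measure the spread between them.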

Additional observations from a re-analysis of the deposited data

Results flagged for a closer look

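For 5 of the 44 genes, the FL3 value stood apart from the other 3 FL livers by Dixon's criterion for a single extreme value. These were *Col1a1* at 334, *Col3a1* at 704, *Col6a1* at 235, *Col6a3* at 166 and *Sparc* at 1484 normalised counts, where *Sparc* only just met the criterion. Chance would flag about 1 group in 20, or 2.2 genes, if no liver stood apart across many genes. FL3 did so on the first principal component, and the share of all tested genes flagged for it was not counted. Whether 5 is more than other genes would give in FL3 was therefore not tested. All 5 were highest in FL3 of the FL group and higher still in WT2. The criterion cannot be applied to the 3 WT livers.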

How the results depend on the processing

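No member passed the adjusted threshold under any of the 17 alternatives, and the smallest adjusted p of a named member was 0.15. The number of all genes past it was 2 and became 0 with a pseudocount of 5, a stricter filter (mean 50), no trend in limma or the replicate block, 1 with quantile normalisation, 6 without WT2 and FL3, and 0 to 5 when single livers were left out. Members with an unadjusted p under 0.05 numbered 1, 8 without WT2 and FL3, and 1 to 6 leaving out single livers (6 without WT2, 4 without WT3, 3 without FL3). Of all 12545 tested genes, 401 had such a p, and 1215 without WT2 and FL3. Their number was 747 without WT2, 375 without WT3 and 520 without FL3. Members lower in FL numbered 34, 17 without WT2 and FL3, and 10 (without WT2) to 37. Their median log2 fold change was -0.55 to 0.20 leaving out single livers.

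Of 23 named members with a fit, 11 kept their sign throughout. Leaving out single livers gave ranges, with the positive end without WT2, of -1.86 to 0.39 for *Col1a1*, -1.83 to 0.38 for *Col3a1*, -0.34 to 0.31 for *Col4a1*, -1.15 to 0.16 for *Col6a1*, -1.39 to 0.25 for *Col6a3*, -0.456 to 0.0181 for *Des*, -0.459 to 0.0184 for *Reln*, -0.41 to 0.57 for *Sparc*, -0.52 to 0.18 for *Tgfb1*, -0.0564 to 0.35 for *Mmp14* and -0.22 (without WT3) to 1.96 for *Timp1*. *Mmp14* was also below 0 without FL4 or WT1. With the sign kept, the end nearest 0 was without WT2 for *Lrat* (-0.31), *Lum* (-0.27), *Mmp2* (-0.0459), *Pdgfra* (-0.13), *Tagln* (-0.15), *Tgfb2* (-0.33) and *Thy1* (-0.46). Without WT2 and FL3 the sign turned for *Col4a1* (0.15), *Reln* (0.0496) and *Sparc* (0.46). *Fn1* turned to -0.15 with quantile normalisation and *Mmp14* to -0.0069 with the replicate block. Beyond what leaving out livers shows, the cause was not tested.

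Whether replicate numbers pair the mice cannot be told from these values. Deviations from the group mean had correlations of 0.44, -0.48 and -0.66 between same-numbered livers. WT2 and FL3, which carry different numbers, dominate these deviations, so the signs do not decide it. The replicate block gave 0 genes past the threshold, 35 members lower in FL and a median of -0.39. Its fold changes were those obtained without FL4, the only liver with its number. Low depth limits *Timp1*, *Lox* and *Loxl2*.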
